A study of Mus musculus with 6 samples.

Results

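A set of 10 genes that run or report the integrated stress response were measured in mouse lung after primary blast lung injury (PBLI). The 10 genes were Nupr1, Atf3, Atf4, Atf5, Ddit3, Trib3, Cebpb, Cebpg, Ppp1r15a and Ddit4, and each had exactly 1 row among the 22564 protein-coding genes of the mRNA table. They were chosen by name, with the PBLI and control levels of these same libraries known, so the comparison of their mRNA levels is given below as a description, without a test.

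In the integrated stress response, kinases that sense unfolded protein, missing amino acids, heme shortage or double-stranded RNA phosphorylate the translation factor eIF2. Most translation then slows, while the mRNA of the transcription factor ATF4 is translated better, and ATF4 with its partners switches on genes for amino acid import, amino acid synthesis and tRNA charging. Nupr1 encodes a small stress-induced nuclear protein, Ddit3 encodes CHOP, and Ppp1r15a encodes GADD34, which closes the loop by bringing a phosphatase back to eIF2.

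The PBLI group consisted of 3 pools of lung from male C57BL/6 mice of 8 to 10 weeks, anesthetized, exposed at the chest to an overpressure of 0.5 bar from a shock tube and sampled 6 h later. The control group consisted of 3 pools from mice of the same strain, sex and age that were anesthetized and not exposed. Each pool held lung of 2 mice, 12 mice in all, so every value is an average over 2 animals and p-values measure only the spread between pools. The PBLI libraries are called G3, G4 and G5 as in the table, which gives their group but no sample number, and the control libraries are 1, 2 and 3.

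Ribosomal RNA was removed from total RNA, and mRNA levels were deposited as FPKM, a count of sequenced fragments scaled to transcript length and to library size. Relative depth, read from the commonest ratio between libraries among genes of very low FPKM, was 1.32 (G3), 1.24 (G4) and 1.61 (G5) in the PBLI group, against 1, 0.994 and 1.15 in controls 1, 2 and 3, so by this estimate the PBLI libraries were deeper. The lung label fitted the markers, with alveolar type 2 genes summing to 12065 to 12972 FPKM in PBLI and 9238 to 10241 FPKM in control libraries. In limma over the 14760 genes that reached 0.5 FPKM in at least 1 library, PBLI lung had 170 higher and 137 lower genes at an adjusted p under 0.05 (Benjamini-Hochberg). Those counts depended on which libraries were in. They were 311 and 188 without PBLI G5, 69 and 46 without PBLI G4, 15 and 3 without PBLI G3, 48 and 12 without control 1, 5 and 0 without control 2, and 69 and 42 without control 3.

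Nupr1 was the most changed of the 10 genes. Its level was 448, 370 and 375 FPKM in PBLI G3, G4 and G5, against 54.0, 48.3 and 51.6 FPKM in controls 1, 2 and 3. All 3 PBLI pools were far above all 3 control pools, and the spread within each group was small beside the gap between them. The means were 398 ± 43.8 FPKM in the PBLI group and 51.3 ± 2.85 FPKM in the control group (SD, n = 3 each), a ratio of 7.75, and the difference on the log2(FPKM + 0.5) scale was 2.94 (SE 0.10). By level, Nupr1 stood between rank 49 and rank 73 of all genes in the PBLI libraries, and between rank 1166 and rank 1346 in the control libraries. Its log2 difference was the 7th highest of all 14760 tested genes. Among the 10 genes it made up 66.4%, 64.6% and 57.8% of the summed FPKM in PBLI G3, G4 and G5, against 26.5%, 22.9% and 24.5% in controls 1, 2 and 3.

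Nupr1 lies on the reverse strand of chromosome 7 (126623249 to 126630861, GRCm38, GENCODE vM21). ATF4 and C/EBP proteins bind together at a composite site called the C/EBP-ATF response element (CARE), so the 250 bases before each gene's start in RefSeq (GRCm38.p6) were searched on both strands for its letters TTNCATCA, and for the cyclic AMP response element (CRE), TGACGTCA. All 10 genes were matched. A RefSeq start need not be the outermost start in GENCODE. The windows of Nupr1 and Atf3 lie inside the GENCODE spans of these genes (191170296 to 191218039 on chromosome 1 for Atf3). CARE letters stood before Nupr1 and Atf3, CRE letters before Ppp1r15a, and neither stood in this window before the other genes, including both Atf5 starts. Of all 32851 windows of this length, 3.45% held TTNCATCA and 1.55% held TGACGTCA, and no window of the 10 genes held both. The 3 windows with a match are shown because they place the letters relative to the start, with the match in capitals and each read from 5′ to 3′ on the reverse strand, from chr7:126625471-126625720 for Nupr1, chr1:191183334-191183583 for Atf3 and chr7:45526269-45526518 for Ppp1r15a.
Nupr1: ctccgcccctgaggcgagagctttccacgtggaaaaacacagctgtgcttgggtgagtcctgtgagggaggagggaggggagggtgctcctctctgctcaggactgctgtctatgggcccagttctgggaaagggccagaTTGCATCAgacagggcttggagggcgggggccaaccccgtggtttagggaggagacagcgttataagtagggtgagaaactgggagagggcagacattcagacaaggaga
Atf3: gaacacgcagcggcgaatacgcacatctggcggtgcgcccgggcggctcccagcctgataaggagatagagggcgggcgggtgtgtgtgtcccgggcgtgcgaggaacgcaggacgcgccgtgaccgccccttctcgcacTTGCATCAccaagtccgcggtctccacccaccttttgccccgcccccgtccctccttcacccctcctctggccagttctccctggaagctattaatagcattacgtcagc
Ppp1r15a: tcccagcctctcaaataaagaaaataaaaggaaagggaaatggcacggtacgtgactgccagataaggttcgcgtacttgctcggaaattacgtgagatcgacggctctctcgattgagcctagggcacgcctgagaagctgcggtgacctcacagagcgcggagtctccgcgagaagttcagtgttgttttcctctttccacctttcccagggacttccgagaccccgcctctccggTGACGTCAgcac
Counting the base before the start as -1, the match began at -110 in both Nupr1 and Atf3, with the same 8 letters, and at -12 in Ppp1r15a. A match describes the letters only, since no binding was measured here.

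**Figure D1:**
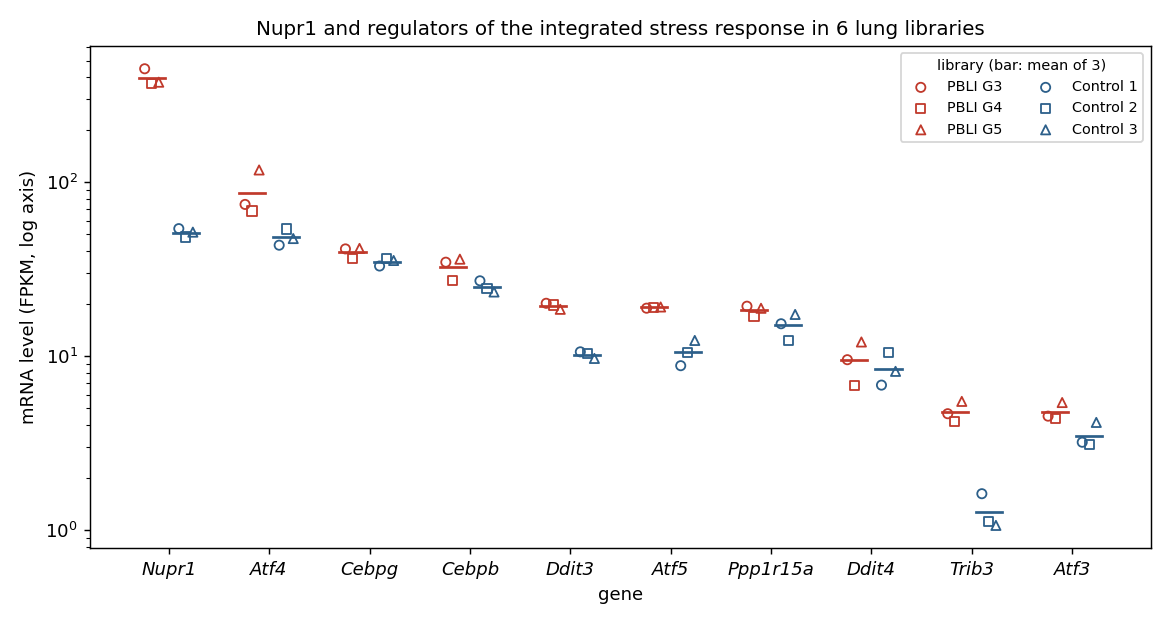
Level of each of the 10 genes in FPKM (log axis) in the 3 PBLI libraries (red, left) and the 3 control libraries (blue, right), with a bar at the mean of each group. Nupr1 sits at 370 to 448 FPKM in the PBLI libraries and 48.3 to 54.0 FPKM in the control libraries, while Cebpg, Ppp1r15a and Ddit4 overlap between the groups.

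Among the transcription factors, Atf4, the central regulator of the response, had 74.4, 68.3 and 117 FPKM in PBLI G3, G4 and G5, against 43.4, 53.7 and 47.4 FPKM in controls 1, 2 and 3. The groups did not overlap, but PBLI G5 stood well above the other two PBLI pools. The log2 difference was 0.81 (SE 0.20), and 0.57 without PBLI G5. Because ATF4 is regulated mainly by translation, its mRNA level is not a measure of its protein.

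Ddit3, whose product CHOP is a transcription factor made under lasting endoplasmic reticulum stress, had 20.1, 19.7 and 18.6 FPKM in PBLI G3, G4 and G5, against 10.6, 10.3 and 9.69 FPKM in controls 1, 2 and 3. All 3 PBLI pools were close together and well above the controls, with a ratio of means of 1.91 and a log2 difference of 0.90 (SE 0.10). Atf5, a relative of ATF4 that is likewise regulated by translation, had 18.8, 19.1 and 19.1 FPKM in PBLI G3, G4 and G5, against 8.80, 10.5 and 12.3 FPKM in controls 1, 2 and 3. Its PBLI pools were nearly equal and its control pools varied more (coefficients of variation 0.863% and 16.6%), and the log2 difference was 0.84 (SE 0.13).

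The remaining transcription factors differed less. Atf3, an early stress-induced repressor and activator of the ATF family, had 4.51, 4.36 and 5.40 FPKM in PBLI G3, G4 and G5, against 3.19, 3.10 and 4.15 FPKM in controls 1, 2 and 3, a log2 difference of 0.41 (SE 0.18). Its groups were apart, but PBLI G4 exceeded control 3 only slightly. Cebpb, a C/EBP factor of inflammation and of the acute phase, had 34.6, 27.2 and 36.0 FPKM in PBLI G3, G4 and G5, against 27.1, 24.5 and 23.3 FPKM in controls 1, 2 and 3. PBLI G4 and control 1 nearly touched there (27.15 and 27.07 FPKM), so the log2 difference of 0.37 (SE 0.13) rested on PBLI G3 and G5. Cebpg, a C/EBP protein that pairs with ATF4, had 41.3, 36.2 and 41.6 FPKM in PBLI G3, G4 and G5, against 32.9, 36.5 and 35.4 FPKM in controls 1, 2 and 3, so the groups overlapped and the log2 difference was 0.18 (SE 0.09).

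Of the genes whose products restrain the response or growth, Trib3, a pseudokinase that binds ATF4 and limits it, differed the most. Trib3 had 4.66, 4.19 and 5.49 FPKM in PBLI G3, G4 and G5, against 1.62, 1.12 and 1.06 FPKM in controls 1, 2 and 3. All PBLI pools were at least at 4.19 FPKM and no control pool was over 1.62 FPKM, a ratio of means of 3.77 and a log2 difference of 1.59 (SE 0.20). It was the lowest of the 10 genes in the control libraries, so its difference depended on the constant added before taking logs. The log2 difference was 1.85 with 0.1 FPKM added and 1.35 with 1 FPKM added.

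Ppp1r15a, the stress-induced subunit that directs dephosphorylation of eIF2, had 19.3, 16.8 and 18.8 FPKM in PBLI G3, G4 and G5, against 15.3, 12.3 and 17.3 FPKM in controls 1, 2 and 3. Control 3 lay above PBLI G4, so the groups overlapped, and the log2 difference was 0.29 (SE 0.14). Ddit4, which encodes the mTORC1 inhibitor REDD1, had 9.53, 6.79 and 12.0 FPKM in PBLI G3, G4 and G5, against 6.80, 10.4 and 8.16 FPKM in controls 1, 2 and 3. PBLI G4 was the lowest of all 6 libraries, the log2 difference was 0.14 (SE 0.23), and it was -0.05 without PBLI G5 and -0.0025 without control 1. Ddit4 had no direction that held across the pools.

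Over the whole set, 7 of 10 genes had every PBLI library above every control library, which 13.3% of all tested genes also had. In the limma fit 4 of the 10 were called higher (Nupr1, Ddit3, Trib3 and Atf5) and 0 lower, beside 1.15% and 0.928% of all tested genes. The same contrast chose the genes, so nothing further is read from these counts. No threshold separated them from other genes: the smallest log2 difference among them, that of Ddit4, was 0.14, and the median over all tested genes was -0.02.

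The order of levels also differed between the groups. In PBLI lung it ran Nupr1, Atf4, Cebpg, Cebpb, Ddit3, Atf5, Ppp1r15a, Ddit4, Trib3 and Atf3, and the ranges of neighbours overlapped between Ddit3 and Atf5, between Atf5 and Ppp1r15a, and between Trib3 and Atf3. In control lung the order ran Nupr1, Atf4, Cebpg, Cebpb, Ppp1r15a, Atf5, Ddit3, Ddit4, Atf3 and Trib3, with overlap between Nupr1 and Atf4, between Atf5 and Ddit3, and between Ddit3 and Ddit4. Nupr1 thus stood clear of Atf4 in PBLI lung, and their FPKM ranges overlapped in control lung.

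**Figure D2:**
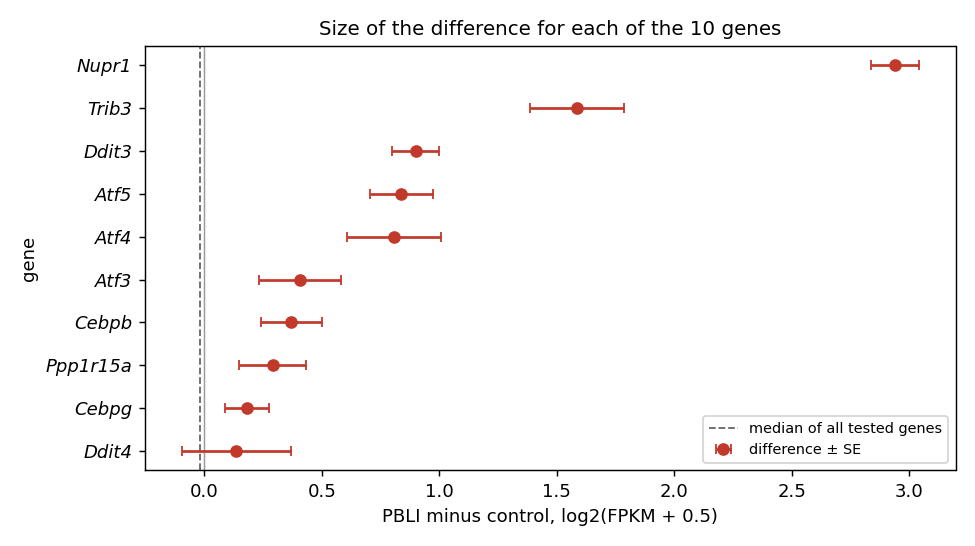
Difference between the PBLI and control groups for each of the 10 genes on the log2(FPKM + 0.5) scale, with bars of ± 1 SE (3 pools a group) and a dashed line at the median of all tested genes (-0.02). Nupr1 lies at 2.94 and Trib3 at 1.59, Ddit3, Atf5 and Atf4 lie between 0.81 and 0.90, and the SE bar of Ddit4 crosses 0.

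The targets of the response were followed in a list of 53 genes known to be controlled by ATF4 or CHOP, chosen with results of these data known. Of the 51 that reached 0.5 FPKM in at least 1 library, 15 rose, 0 fell and 36 did not pass the threshold, beside 1.15% of all tested genes higher and 0.928% lower. Their median log2 difference was 0.62, against -0.02 over all tested genes. Of the 51 differences 46 were positive, beside 47.1% of all tested genes. An unadjusted p under 0.05 in limma was reached by 36 positive differences and 1 negative. Over all tested genes 2829 of 14760 reached it in either direction.

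Among the carriers of cystine and amino acids, Slc7a11, the cystine importer, had 30.3, 25.2 and 44.6 FPKM in PBLI G3, G4 and G5, against 1.74, 0.748 and 0.378 FPKM in controls 1, 2 and 3, a log2 difference of 4.61 (SE 0.36, adjusted p = 0.00385). Slc3a2, the heavy chain that Slc7a11 and Slc7a5 share, had 73.4, 70.9 and 84.9 FPKM in PBLI G3, G4 and G5, against 31.7, 37.7 and 37.8 FPKM in controls 1, 2 and 3, and differed by 1.09 (SE 0.11, adjusted p = 0.00876). Slc7a5, the carrier of large neutral amino acids, had 7.74, 7.81 and 13.4 FPKM in PBLI G3, G4 and G5, against 1.52, 1.59 and 2.08 FPKM in controls 1, 2 and 3, and differed by 2.15 (SE 0.24, adjusted p = 0.0109). In all 3 genes the groups were well apart, and PBLI G5 was the highest library.

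Enzymes and stress proteins were among the called genes too. Asns, asparagine synthetase, had 19.8, 18.2 and 31.0 FPKM in PBLI G3, G4 and G5, against 5.48, 6.69 and 5.62 FPKM in controls 1, 2 and 3 (log2 difference 1.84, SE 0.21, adjusted p = 0.0109). Wars, the cytosolic tryptophanyl-tRNA synthetase, averaged 52.4 ± 0.528 FPKM in PBLI and 34.7 ± 0.0705 FPKM in control libraries (SD, n = 3 each), with an adjusted p of 0.0162 in limma. Sqstm1, the autophagy receptor p62, averaged 296 ± 52.4 FPKM in PBLI and 96.0 ± 10.1 FPKM in control libraries (SD, n = 3 each), with an adjusted p of 0.00576 in limma. Sqstm1 and Slc7a11 are also targets of the oxidative stress factor NRF2, so the list is not specific to ATF4.

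Gdf15, a secreted stress cytokine, averaged 4.14 ± 0.511 FPKM in PBLI and 0.369 ± 0.358 FPKM in control libraries (SD, n = 3 each), a log2 difference of 2.48 (SE 0.30, adjusted p = 0.0149 in limma). Gadd45a, a growth arrest and DNA damage gene, averaged 16.2 ± 1.17 FPKM in PBLI and 7.57 ± 1.01 FPKM in control libraries (SD, n = 3 each), a log2 difference of 1.05 (SE 0.13, adjusted p = 0.0163 in limma). The number of genes of this list that passed depended on the libraries, with 0 without control 2, 2 without PBLI G3, 5 without control 1, 7 without control 3, 8 without PBLI G4 and 17 without PBLI G5.

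Of the 42 listed targets with a promoter in the RefSeq table, 11 (26.2%) held TTNCATCA within the 250 bases before a start, against 3.45% of all windows, where a gene with several starts has several windows. Matches stood before 3 of the 11 called and 8 of the 31 other matched targets. The 3 called targets with a match were Asns, Slc7a11 and Chac1, a glutathione-degrading enzyme named here after its values were seen. Their matches are shown in the direction of the letters searched, in capitals, with 11 bases on each side, since their letters can be set beside those before Nupr1 and Atf3 above. They lie at chr6:7693214-7693243 (forward strand) for Asns, chr3:50443661-50443690 (forward) and chr3:50443642-50443671 (reverse) for Slc7a11, and chr2:119351038-119351067 (forward) for Chac1, in GRCm38.p6.
Asns: cgtgcgggaagTTTCATCAtgtggctggga
Slc7a11 a: attctccaggtTTGCATCAgccacatgaga
Slc7a11 b: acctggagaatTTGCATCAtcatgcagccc
Chac1: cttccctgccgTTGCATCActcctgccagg
Slc7a11 and Chac1 share the 8 letters found before Nupr1 and Atf3, and the letters of Asns differ from these only at the free position N.

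**Figure D3:**
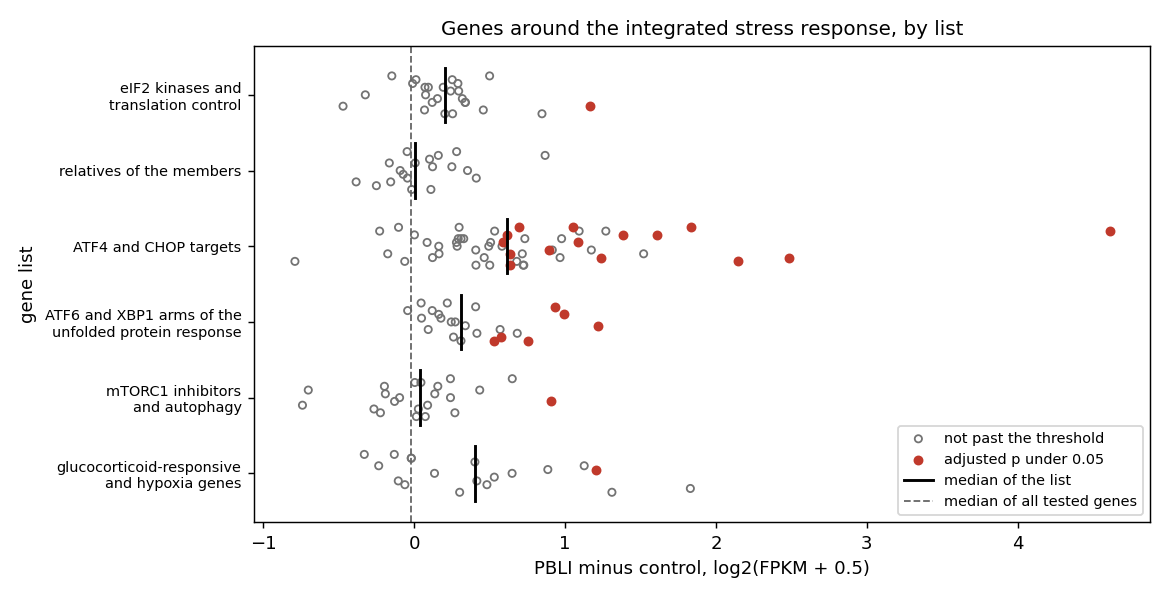
Difference between the PBLI and control groups on the log2(FPKM + 0.5) scale for every tested gene of 6 lists, 1 point a gene, filled where adjusted p was under 0.05, with a bar at each list's median and a dashed line at the median of all tested genes. The ATF4 and CHOP targets have a median of 0.62 and 15 filled points of 51, and the relatives of the members have a median of 0.01 and 0 of 19.

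Upstream of ATF4 stand the eIF2 kinases and the translation machinery. Of 25 genes in this list 1 rose and 0 fell, beside 1.15% and 0.928% of all tested genes, with a median log2 difference of 0.20. The difference was positive in 21 of 25, beside 47.1% of all tested genes. Every PBLI library was above every control library in 9, as in 13.3% of all tested genes. In limma, unadjusted p was under 0.05 for 7 positive differences and 1 negative, beside 2829 of all 14760 tested genes in either direction. The called gene was Eif4ebp1, an inhibitor of cap-dependent translation and itself an ATF4 target, with 17.6, 14.6 and 19.4 FPKM in PBLI G3, G4 and G5, against 9.69, 6.67 and 6.12 FPKM in controls 1, 2 and 3 (log2 difference 1.16, SE 0.19, adjusted p = 0.0311). It lost its call without control 2, control 3, PBLI G3 or PBLI G4.

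None of the 4 kinases passed the threshold. Eif2ak3, which encodes the endoplasmic reticulum stress kinase PERK, averaged 17.1 ± 1.68 FPKM in PBLI and 14.3 ± 1.39 FPKM in control libraries (SD, n = 3 each). Eif2ak1, the heme-regulated kinase, averaged 12.8 ± 0.869 and Eif2ak4, the amino acid sensor GCN2, 9.32 ± 0.884 FPKM in PBLI libraries, against 10.8 ± 0.704 and 8.80 ± 0.187 FPKM in control libraries. Eif2ak2, the interferon-induced kinase PKR, was the only kinase with a negative difference, with 22.8, 30.9 and 23.9 FPKM in PBLI G3, G4 and G5, against 33.7, 40.2 and 33.7 FPKM in controls 1, 2 and 3 (log2 difference -0.47, SE 0.14, adjusted p = 0.138).

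The other genes of this list that the naming rule gave did not pass either. Eif2b4, a subunit of the guanine nucleotide exchange factor eIF2B, had a log2 difference of 0.85 (SE 0.18, adjusted p = 0.0622), and Dnajc3, an inhibitor of the PERK kinase, had 0.34 (SE 0.08, adjusted p = 0.0847). Ppp1r15b, the constitutive partner of Ppp1r15a, averaged 36.8 ± 1.68 FPKM in PBLI and 33.8 ± 0.707 FPKM in control libraries (SD, n = 3 each). Eif2s1, the phosphorylated subunit of eIF2, had 16.5, 15.1 and 26.6 FPKM in PBLI G3, G4 and G5, against 15.5, 13.4 and 15.5 FPKM in controls 1, 2 and 3, so that only PBLI G5 lay outside the control range by much.

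The unfolded protein response has 2 arms beside PERK, run by ATF6 and by IRE1 with XBP1. Of 23 genes of these arms, also listed with results of these data known, 6 rose and 0 fell. Over all tested genes 1.15% rose and 0.928% fell. The median log2 difference of the list was 0.31. In limma, unadjusted p was under 0.05 for 14 positive differences and 0 negative, beside 2829 of all 14760 tested genes in either direction. Hspa5, the chaperone BiP, had 319, 311 and 368 FPKM in PBLI G3, G4 and G5, against 148, 131 and 150 FPKM in controls 1, 2 and 3 (log2 difference 1.21, SE 0.10, adjusted p = 0.00473). Dnajb9, a co-chaperone and XBP1 target, averaged 71.1 ± 2.57 FPKM in PBLI and 37.0 ± 2.62 FPKM in control libraries (SD, n = 3 each), with an adjusted p of 0.00607 in limma. Both genes were higher in every PBLI library than in any control library.

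Manf, a secreted protein of the endoplasmic reticulum, had a log2 difference of 0.99 (SE 0.14, adjusted p = 0.0184), and the chaperone Hyou1 had 0.75 (SE 0.13, adjusted p = 0.0324). Ern1, which encodes IRE1, had 0.58 (SE 0.10, adjusted p = 0.0321), and its substrate Xbp1 had 0.53 (SE 0.09, adjusted p = 0.0321). The count of 6 was 0 without control 2, 1 without PBLI G3, 2 without control 1, 2 without control 3, 4 without PBLI G4 and 6 without PBLI G5.

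The relatives of the 10 genes gave no call. Of 22 genes of the same families, such as other ATF, C/EBP, BATF and Tribbles genes, 19 were tested. By limma 0 rose and 0 fell, beside 1.15% and 0.928% of all tested genes, and the median log2 difference was 0.01. In limma, unadjusted p was under 0.05 for 4 of the 19, all with positive differences. Over all tested genes 2829 of 14760 had such a p in either direction, so nothing is read from this count. Atf6 came closest to a call, with 31.9, 31.0 and 32.1 FPKM in PBLI G3, G4 and G5, against 22.9, 24.2 and 23.9 FPKM in controls 1, 2 and 3 (log2 difference 0.41, SE 0.08, adjusted p = 0.0542). Without PBLI G5 its adjusted p was 0.0469. Trib1, a Tribbles gene related to Trib3, had 17.39, 14.97 and 29.42 FPKM in PBLI G3, G4 and G5, against 9.72, 10.5 and 11.6 FPKM in controls 1, 2 and 3 (log2 difference 0.87, SE 0.24, adjusted p = 0.116). Cebpa and Atf6b had log2 differences of 0.35 and 0.28 (adjusted p = 0.138 and 0.231). All 4 had every PBLI library above every control library, without passing the threshold. These were the 4 genes with the smallest p, so nothing is read from their lack of overlap. Over the list 4 of 19 had it, beside 13.3% of all tested genes.

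Ddit4 was set beside other mTORC1 inhibitors and autophagy genes. Of 22 such genes 1 rose and 0 fell, beside 1.15% and 0.928% of all tested genes, with a median log2 difference of 0.04. In limma, unadjusted p was under 0.05 for 3 positive differences and 2 negative, beside 2829 of all 14760 tested genes in either direction. Gabarapl1, an autophagosome protein, had 94.93, 93.85 and 98.17 FPKM in PBLI G3, G4 and G5, against 44.6, 52.1 and 56.5 FPKM in controls 1, 2 and 3 (log2 difference 0.91, SE 0.10, adjusted p = 0.0109). Its call was lost without control 2 or PBLI G3. Atg3, an autophagy conjugating enzyme, had a log2 difference of 0.65 (adjusted p = 0.0797), Atg10 of -0.70 (adjusted p = 0.0695) and Castor1, an arginine sensor listed under its older symbol Gatsl3, of -0.74 (adjusted p = 0.124).

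Ddit4 also responds to glucocorticoids and to low oxygen. In a list of 19 such genes 1 rose and 0 fell, beside 1.15% and 0.928% of all tested genes, with a median log2 difference of 0.40. The difference was positive in 12 of 19, beside 47.1% of all tested genes. In limma, unadjusted p was under 0.05 for 8 positive differences and 0 negative, beside 2829 of all 14760 tested genes in either direction. Slc2a1, the glucose transporter GLUT1, had 10.6, 8.90 and 15.4 FPKM in PBLI G3, G4 and G5, against 3.623, 5.502 and 4.998 FPKM in controls 1, 2 and 3 (log2 difference 1.20, SE 0.23, adjusted p = 0.0491), just under the threshold, and it lost its call whichever library was left out. Bnip3, Hif1a and Adm had log2 differences of 0.41, 0.40 and 1.31 and did not pass (adjusted p = 0.0789, 0.162 and 0.164). Adm, the vasodilator peptide adrenomedullin, had 4.44, 4.93 and 14.7 FPKM in PBLI G3, G4 and G5, against 3.30, 2.36 and 1.96 FPKM in controls 1, 2 and 3. Glucocorticoid-responsive genes, named here after their values were seen, went both ways. Fkbp5 had a log2 difference of 1.83 (SE 0.65, adjusted p = 0.195 by limma). Its level was 29.5, 16.2 and 105 FPKM in PBLI G3, G4 and G5, against 7.53, 7.25 and 18.5 FPKM in controls 1, 2 and 3. Control 3 lay above PBLI G4, so the groups overlapped. The log2 differences of Zbtb16, Klf9 and Tsc22d3 were 0.65, 0.53 and 0.48. Those of Sgk1, Per1 and Dusp1 were -0.13, -0.11 and -0.06.

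PBLI G5 differed from the other PBLI libraries in several of these genes. It was the highest of the 3 PBLI libraries in 7 of the 10 genes and in 37 of the 51 tested ATF4 and CHOP targets, and in 37.6% of all tested genes. It was also the highest in 63.2% of the glucocorticoid and hypoxia list, 56% of the eIF2 list and 52.6% of the relatives. The share was 52.2% for the ATF6 and XBP1 arms and 22.7% for the mTORC1 and autophagy genes. Relative to the mean of PBLI G3 and G4, the level in PBLI G5 was 1.65 times as high for Atf4, 1.63 for Asns, 1.72 for Slc7a5, 1.61 for Slc7a11 and 1.82 for Trib1. It was 1.30 times as high for Sqstm1, 1.24 for Trib3 and 1.01 for Wars. The called targets Gdf15 and Gadd45a were highest in PBLI G4 and PBLI G3. This ratio was not computed over all tested genes. For Adm and Fkbp5, of the glucocorticoid and hypoxia list, this ratio was 3.13 and 4.59. For Nupr1 the same ratio was 0.918, for Ddit3 0.934 and for Atf5 1.01. PBLI G5 thus had the highest Atf4 level of the 3 PBLI libraries, while PBLI G3 had the highest Nupr1 level. PBLI G4 was the lowest of the PBLI libraries in 8 of the 10 genes. The share of all tested genes lowest in PBLI G4 was not computed, so nothing is read from that count.

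Cell type markers moved between the libraries as well, and in tissue RNA fewer cells of a type and less RNA per cell cannot be told apart. Of 9 neutrophil markers 1 was called higher (Mmp8), beside 1.15% of all tested genes. All 9 had positive differences, beside 47.1% of all tested genes. The neutrophil markers summed to 2361, 2031 and 536 FPKM in PBLI G3, G4 and G5, against 215 to 336 FPKM in the control libraries. Lcn2, on the same list, ran the other way within the PBLI group, at 99.7, 88.7 and 166 FPKM in PBLI G3, G4 and G5. Ly6g, a defining marker, was at 1.37 FPKM in PBLI G3 and at 0 in the other 5 libraries. Nupr1 was at 375 FPKM in PBLI G5, where the neutrophil sum was the lowest of the PBLI libraries but above every control library. It was at 370 and 448 FPKM in PBLI G4 and G3.

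Of 7 lymphocyte markers 1 was called lower (Ncr1), beside 0.928% of all tested genes. The lymphocyte markers summed to 15.9 to 50.4 FPKM in PBLI and 50.1 to 69.5 FPKM in control libraries. Of 6 fibroblast and smooth muscle markers 1 was called lower (Col1a2), beside the same 0.928%. They summed to 319 to 386 FPKM in PBLI and 404 to 448 FPKM in control libraries. This list went both ways, with 2 of the 6 differences positive. Pdgfra was higher in every PBLI library than in any control library (log2 difference 0.48, adjusted p = 0.0815 by limma), and Dcn differed by 0.12. Of 5 adipocyte markers none was called (1 at an unadjusted p under 0.05 by limma), and they summed to 13.4 to 40.5 FPKM in PBLI and 6.33 to 17.5 FPKM in control libraries. Of the 6 markers each of endothelium, alveolar type 1 cells and airway epithelium 0 were called by limma. An unadjusted p under 0.05 was reached by 2 of each 6, beside 2829 of all 14760 tested genes. Nothing is read from these counts. Endothelial markers summed to 802 to 929 FPKM in PBLI and 947 to 1025 FPKM in control libraries, and alveolar type 1 markers to 1657 to 1810 FPKM in PBLI and 1344 to 1573 FPKM in control libraries, without overlap in either list. Airway markers summed to 16198 to 26418 FPKM in PBLI and 20708 to 31432 FPKM in control libraries. Of these, Cyp2f2 had a log2 difference of -0.84 and Scgb3a2 of -0.87 (adjusted p = 0.0705 and 0.153). The cardiac markers summed to 64.0 FPKM in PBLI G4 and 86.3 FPKM in control 1, and to 150.5 to 174 FPKM in the other 4 libraries. Ddit4 was also lowest in PBLI G4 and control 1. The part of these cells in the levels of the 10 genes was not tested.

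**Figure D4:**
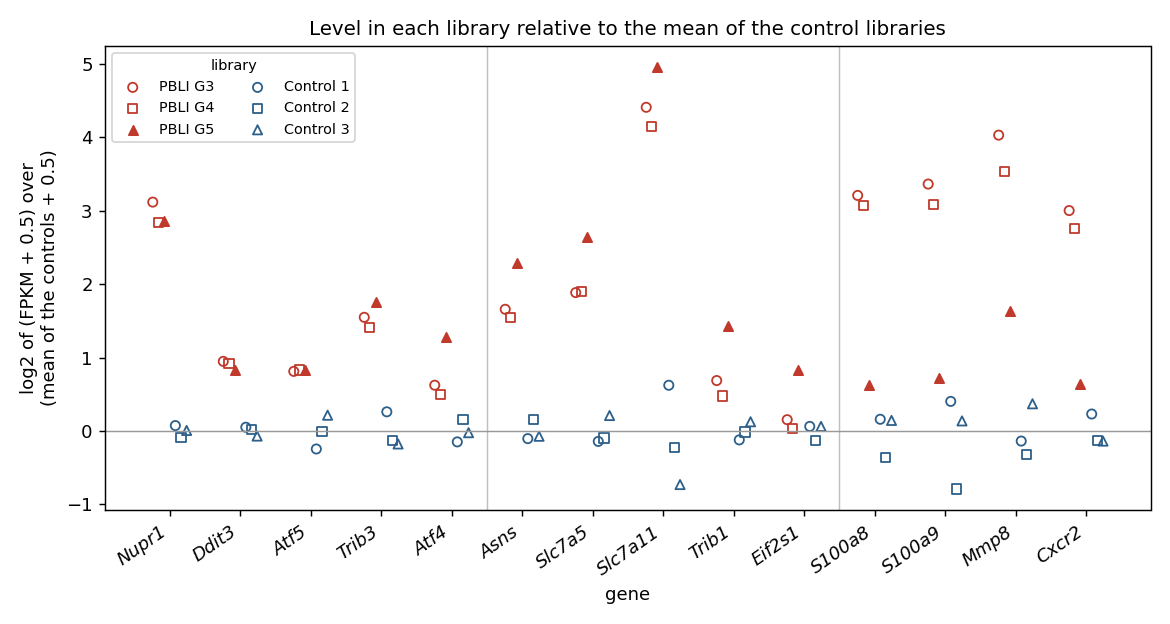
Level in each library relative to the mean of the controls, as log2 of (FPKM + 0.5), for 5 of the 10 genes (left), 5 genes of the lists (middle) and 4 neutrophil markers (right), with PBLI libraries in red, control libraries in blue and PBLI G5 filled. PBLI G5 is above PBLI G3 and G4 in Atf4, Asns, Slc7a5, Slc7a11, Trib1 and Eif2s1. It is near them in Nupr1, Ddit3 and Atf5, and far below them in the 4 neutrophil markers drawn. The neutrophil marker Lcn2, not drawn, was highest in PBLI G5.

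The genes whose levels ran most like those of Nupr1 were sought among the 9534 other tested genes with a mean of at least 5 FPKM, by Pearson's r of log2(FPKM + 0.5) over the 6 libraries. The highest were Myd88, an adaptor of Toll-like receptors (r = 0.999), Ppp1r9b, a phosphatase-targeting scaffold (r = 0.996), Socs3, a feedback inhibitor of cytokine signalling (r = 0.996), Wars (r = 0.996) and Chordc1, an HSP90 co-chaperone (r = 0.995). With 2 groups of 3 libraries, r is set mostly by the gap between the groups, so these values are descriptions. Myd88 had 21.7, 21.1 and 21.4 FPKM in PBLI G3, G4 and G5, against 12.3, 11.4 and 11.9 FPKM in controls 1, 2 and 3, and Socs3 had 29.5, 24.9 and 28.8 FPKM in those PBLI libraries, against 7.42, 7.67 and 8.26 FPKM in those controls. The gap itself was small for Ppp1r9b, at 0.17 on the log2 scale. Within the 10 genes, r with Nupr1 was 0.995 for Ddit3, 0.979 for Trib3, 0.946 for Atf5 and 0.826 for Atf4, and 0.222 for Ddit4.

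Other RNAs of the same genes were few. None of the 3696 circRNAs of the series had 1 of the 10 genes as its host or overlapped its coordinates, so 0 were described. The lncRNA table assigned 6 transcripts to 3 of the genes (Ddit3, Atf3 and Atf5), and both at Atf3 were at 0 FPKM in every library. A noncoding transcript of Atf5 had 1.33, 1.41 and 1.04 FPKM in PBLI G3, G4 and G5, against 1.93, 2.06 and 1.56 FPKM in controls 1, 2 and 3, so that it was lower in every PBLI library while the Atf5 gene value was higher. A transcript of Gm4189, which runs away from the Ddit3 start, was at 1.65, 1.18 and 0 FPKM in PBLI G3, G4 and G5, against 0, 0 and 0.603 FPKM in controls 1, 2 and 3, with no order between the groups. Its other transcript was above 0.001 FPKM only in PBLI G5, at 0.342 FPKM.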

How the data were processed

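The authors trimmed reads with cutadapt (1.9.3), aligned them to mm10 with hisat2 (2.0.4), and deposited mRNA levels as FPKM per gene made with cuffdiff (2.2.1). Its library scaling and strand setting, and the tool behind the deposited lncRNA FPKM per transcript, are not given in any source used here. For circRNAs, values the authors deposited are counts of junction reads from STAR (2.5.1b) and DCC (0.4.4). The 18 columns of read counts and logCPM were not used. FPKM values were taken as they stood, without another scaling.

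The 10 genes and all lists were chosen with earlier results of these data known. Levels of log2(FPKM + 0.5) were compared by limma (3.58.1, R 4.3.3) with a mean-variance trend and Benjamini-Hochberg adjustment. The fit covered 14760 genes, those with 0.5 FPKM or above somewhere among the 6 libraries. It was also run on simulated data with independent noise for each gene and library. Such data hold no shift shared by many genes of a library, so they do not cover that case. Because 0.5 was added, differences of low genes are understated. Where a symbol had several rows, the row with the highest mean was used.

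Named are the 10 genes, the eIF2 kinases, Eif2s1 and Ppp1r15b, of each list the called genes (at most 8, by smallest p, filled up to 4), and the 5 genes most like Nupr1. Coordinates are from GENCODE vM21 and promoters from RefSeq, both GRCm38. Alternatives were other pseudocounts, filters and scalings, no trend, sample weights and leaving out each library. Python 3.11.15, pandas 2.3.3, numpy 2.4.6 and matplotlib 3.10.9 were used.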

Additional observations from a re-analysis of the deposited data

Results flagged for a closer look

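AK136907, a lncRNA transcript antisense to Ddit3, was outside the comparisons above and was higher in every PBLI library, at 1.53, 1.47 and 2.38 FPKM in PBLI G3, G4 and G5, against 1.07, 1.11 and 0.899 FPKM in controls 1, 2 and 3. The ratio of means was 1.75, and that of Ddit3 itself was 1.91. The difference was not tested. The library kit keeps the strand, but the strand setting of the counting is not given in any source used here, and without it reads of AK136907 and Ddit3 could not be told apart.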

How the results depend on the processing

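The signs of the differences held in all 14 alternatives for 9 of the 10 genes, the exception being Ddit4, at -0.05 without PBLI G5, -0.0025 without control 1 and -0.035 with sample weights. Trib3 moved by more than the SD between pools of a group with 0.1 or 1 FPKM added, and Atf4 moved by more than its SE to 0.57 without PBLI G5 and 0.59 with sample weights. Without a trend, 70 genes were called higher and 59 lower, and with genes of any level 106 and 68. With sample weights, chosen after seeing the data, 644 and 529 were called. Leaving out 1 library gave 5 to 311 higher and 0 to 188 lower. For the ATF4 and CHOP targets 9 rose without a trend, 24 with weights and 0 to 17 with a library left out. For the ATF6 and XBP1 arms the values were 2, 11 and 0 to 6. For the eIF2 list 0 rose without a trend and with genes of any level, 3 with weights and 0 to 1 with a library left out. For the relatives 1 rose with genes of any level, with 0.5 FPKM asked of all 6 libraries and with median-of-ratios scaling, 2 with weights and 0 to 1 with a library left out. Of the mTORC1 and autophagy genes 3 rose and 2 fell with weights, and 0 to 2 rose with a library left out. Of the glucocorticoid and hypoxia genes 0 rose with 1 FPKM added, with genes of any level, with either scaling and without a trend, 2 with weights and 0 to 1 with a library left out. The groups were apart in 8 of the 10 genes with median-of-ratios scaling, 6 with upper-quartile scaling and 7 to 9 with a library left out. No paired analysis was possible because the columns of the PBLI libraries carry no sample number. The planned edgeR fit on read counts was not run because those columns do not hold whole numbers. With 3 pools a group, precision was low, and small differences such as those of Cebpg, Ppp1r15a and Ddit4 were not detectable beyond the spread between pools.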
